A study of Mus musculus with 2 samples.

Results

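Cholesterol synthesis was followed at stage E12.5 of the mouse embryo in the liver through 8 genes, 6 enzymes of the pathway (Hmgcs1, Idi1, Fdps, Fdft1, Sqle and Lss) and 2 of its regulators (Srebf2 and Insig1). They were chosen by name, as the probe sets of the array whose annotation gives exactly 1 gene symbol and that symbol is one of the 8. This gave 20 probe sets of the 34945 that name a single gene, and 8 genes of 18193. None of the 8 is itself a carrier or receptor of sterols, so uptake is described from a list of other genes. One array held RNA of mesothelial cells, which form the thin outer covering of the liver, obtained from livers of wild type C57Bl6 embryos after trypsin-EDTA digestion by FACS for podoplanin (Pdpn). The other array held RNA of liver cells from embryos of the same strain, genotype and stage, and the labels give neither the number of embryos nor whether Pdpn+ cells had been taken out. With 1 array a group and no replicate nothing was tested, and the values below describe these 2 arrays. A free-text label that speaks of a far earlier stage was set aside in favour of the stated E12.5.

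Cells build cholesterol from acetyl-CoA through mevalonate and the isoprenoid diphosphates, of which farnesyl diphosphate feeds both sterols and the lipid tails of proteins, and then through squalene, which is oxidised and closed into the first sterol. The transcription factor SREBP-2, encoded by Srebf2, raises the genes of the whole route. It is held in the endoplasmic reticulum by INSIG proteins while sterols are plentiful and is cut free when they run short. Growing tissues need cholesterol for new membranes, and the lipid also modifies Hedgehog ligands.

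The mesothelial array was the brighter of the 2, and every difference has to be read against that. The median intensity over all probe sets other than controls was 65.8 in mesothelial cells, against 42.3 in liver cells, and the gene at the median of all genes read 1.58-fold brighter in mesothelial cells, a difference of 0.66 on the log2 scale. Differences are log2 intensity of the mesothelial array minus log2 intensity of the liver array, as deposited, unless a scaling is named. The highest of 27 bacterial control probe sets, which mark background, was 16.2 on the mesothelial array and 10.5 on the liver array. A probe set counts as above the floor if its brighter value reached the median of that array. The label of the sorted cells was checked on a fixed list of markers. Of the mesothelial markers above the floor, 7 of 7 were brighter by 2-fold or more in mesothelial cells, beside 45.8% of all genes above the floor. After centring each array on its median 7 still were, beside 24.1%. Among them Wt1, a transcription factor of coelomic epithelia, read 1994 against 102. The summed intensity over all 8 measured was 14230 against 524 in liver cells. Pdpn, the gene of the sort, was at 3877 in mesothelial cells, against 100 in liver cells. It is part of the 7 and of the sum, and since the cells were sorted for it, it is no independent check. Hepatocyte genes were also bright on the array of the sorted cells, where albumin (Alb) read 15683, against 12832 in liver cells. In such bulk samples, fewer cells of a type and less RNA per cell cannot be told apart.

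Most of the 8 genes read higher in mesothelial cells as deposited, but by about as much as the typical gene. Of the 20 probe sets, 16 passed the floor, and 14 of them were brighter on the mesothelial array. At least 2-fold higher in mesothelial cells were 8 of the 16, where 41.8% of all 20658 probe sets above the floor were past that fold, and none was brighter by 2-fold or more in liver cells, against 4.06% of all. The median difference of the 16 was 0.96, beside 0.81 over all probe sets above the floor. It was 0.77 over the 11254 probe sets above the floor within the same range of mean intensity. After centring each array on its median, 1 of the 16 stayed brighter by 2-fold or more in mesothelial cells and 1 was brighter by 2-fold or more in liver cells, beside 21.3% and 11.2% of all.

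By gene, with the brightest probe set standing for each, all 8 were above the floor, 3 were brighter by 2-fold or more in mesothelial cells (45.8% of 11905 genes were) and none in liver cells (3.86% were). After median centring no gene of the 8 was brighter by 2-fold or more in mesothelial cells (24.1% of genes were) and 1, Fdps, was brighter by 2-fold or more in liver cells (9.34% were). The median difference of the 8 genes was 0.71, beside 0.66 over all genes and 0.91 over the genes above the floor. The 3 genes past 2-fold were those from squalene onward, Sqle, Lss and Fdft1, and the gene below 0 was Fdps, which acts just before them. Probe sets of one gene differed from each other with a pooled SD of 0.70 on the log2 scale over 5220 genes, which holds no variation between embryos, sorts or arrays. As deposited, the differences of Hmgcs1, Idi1, Srebf2 and Fdps were smaller in size than this SD, and those of Insig1, Fdft1, Lss and Sqle were larger. Measured from the median of all genes instead, only Fdps lay beyond this SD, at -1.25. Sqle was then at 0.696, Lss at 0.68, Fdft1 at 0.55 and Insig1 at 0.24, all within it.

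**Figure D1:**
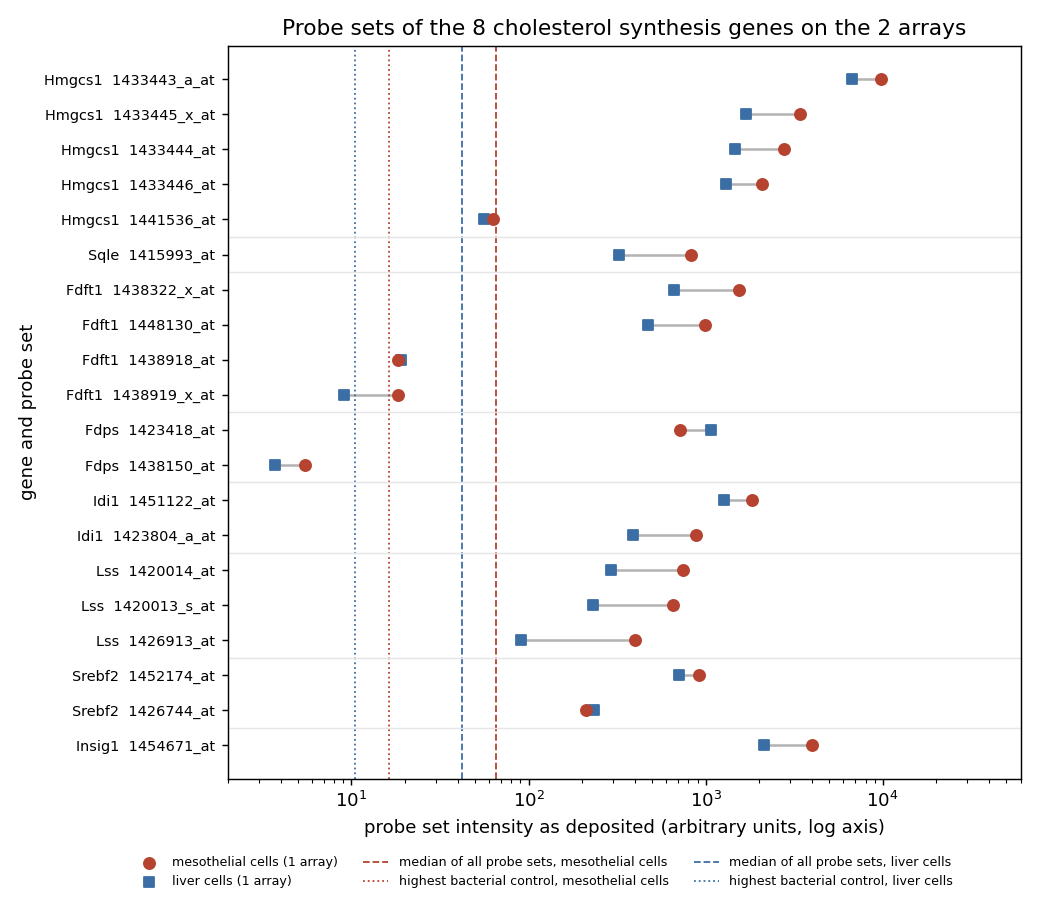
Intensity as deposited (log axis) of the 20 probe sets of the 8 genes, 1 line a probe set, with mesothelial cells as circles and liver cells as squares. Dashed lines mark the median of all probe sets on each array and dotted lines the highest bacterial control. Most circles lie right of their squares, the bright Fdps probe set is turned the other way at 715.5 in mesothelial cells against 1076.1 in liver cells, and 4 probe sets lie below the floor.

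The enzymes up to farnesyl diphosphate come first in the pathway, and none of the 3 reached 2-fold by its brightest probe set. Hmgcs1 encodes the cytosolic synthase that joins acetoacetyl-CoA and acetyl-CoA, and its 5 probe sets read brightest first 9725.9, 3426.4, 2757.3, 2089.9 and 62.8 in mesothelial cells, against 6744.6, 1699.4, 1466.7, 1307.1 and 56.1 in liver cells. All 5 were brighter in mesothelial cells, by 1.44-fold, 2.02-fold, 1.88-fold, 1.60-fold and 1.12-fold, and the last lay below the floor. The 2.02-fold value came from a probe set of a kind (_x_at) whose probes can match other transcripts. Between the 5 the SD of the difference was 0.34, and between the 4 above the floor 0.22. The brightest of them, which stands for the gene, differed by 0.53, and 33.5% of all genes above the floor had a lower difference. Its sign turned to -0.11 after median centring and to -0.40 after centring on reference genes.

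The promoter of Hmgcs1 is shown because it alone of those at hand held TCACNCCAC, the only form of the sterol regulatory element that was searched for. Other forms were not looked for, so the remaining windows are not shown to lack such an element. The promoters of Lss and Srebf2 are shown because they belong to the enzyme with the largest difference of a single probe set and to the gene of the regulator itself. RefSeq promoter windows of the GRCm38.p6 build, from 250 bases before to 50 after the start of the gene, matched 5 of the 8 genes by symbol. Hmgcs1 is taken from chr13:119690101-119690400, Lss from chr10:76531355-76531654 and Srebf2 from chr15:82147019-82147318, all on the + strand and written 5′ to 3′. Capitals mark TCACNCCAC, this form of the sterol regulatory element, and CCAAT or its reverse complement, the box of the factor NF-Y.
Hmgcs1: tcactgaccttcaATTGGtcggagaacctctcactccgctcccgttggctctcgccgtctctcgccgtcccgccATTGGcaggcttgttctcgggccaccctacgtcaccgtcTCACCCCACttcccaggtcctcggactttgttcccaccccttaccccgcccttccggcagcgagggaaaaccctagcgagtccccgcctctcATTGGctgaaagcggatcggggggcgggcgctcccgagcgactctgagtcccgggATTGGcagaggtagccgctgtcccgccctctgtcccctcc
Lss: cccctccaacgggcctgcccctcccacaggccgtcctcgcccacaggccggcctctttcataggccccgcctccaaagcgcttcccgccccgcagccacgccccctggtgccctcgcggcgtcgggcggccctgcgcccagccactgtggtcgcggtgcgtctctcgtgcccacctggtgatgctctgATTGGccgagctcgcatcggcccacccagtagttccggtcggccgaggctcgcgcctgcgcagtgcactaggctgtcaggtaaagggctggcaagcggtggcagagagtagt
Srebf2: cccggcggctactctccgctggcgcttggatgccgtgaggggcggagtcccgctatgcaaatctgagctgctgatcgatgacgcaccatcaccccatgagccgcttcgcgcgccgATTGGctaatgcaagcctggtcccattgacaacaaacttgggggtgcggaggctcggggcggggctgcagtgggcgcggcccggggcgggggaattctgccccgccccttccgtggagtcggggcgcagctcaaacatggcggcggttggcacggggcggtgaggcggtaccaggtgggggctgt

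Letters of 4 motifs were looked for on both strands of the 5 windows, those of Hmgcs1, Idi1, Lss, Srebf2 and Insig1. TCACNCCAC occurred in 1 of the 5, in Hmgcs1 with its first base at -137 from the start, and in 1.24% of all 32851 windows. CCAAT occurred in 5 of the 5, beside 37.4% of all windows, with 4 matches in Hmgcs1, 2 in Idi1 and 1 each in Lss, Srebf2 and Insig1. GGGCGG, the box of Sp1, also occurred in 5 of the 5, beside 35.7% of all windows. CACGTG, an E-box, occurred in 1 of the 5, Insig1, beside 7.15% of all windows. None of the 25 matches overlapped another. A match describes letters in the window and is not a measured site.

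Idi1, the isomerase that turns isopentenyl into dimethylallyl diphosphate, had 2 probe sets, which read 1816.8 and 881.5 in mesothelial cells, against 1271.1 and 390.0 in liver cells. Both were brighter in mesothelial cells, the first by 1.43-fold and the second by 2.26-fold, with an SD of 0.47 on the log2 scale between them. By the brighter one the gene differed by 0.52, which turned to -0.12 after median centring, -0.24 after quantile normalization and -0.41 after centring on reference genes.

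Fdps, the synthase that makes farnesyl diphosphate, was the gene of the 8 whose brightest probe set read lower in mesothelial cells. That probe set read 715.5 in mesothelial cells, against 1076.1 in liver cells, 1.50-fold higher in liver cells, a difference of -0.59. Of all genes above the floor, 6.62% had a lower difference. Its sign was the same under the 5 scalings tried, and the difference reached -1.23 after median centring, -1.39 after quantile normalization and -1.51 after centring on reference genes. The second Fdps probe set read 5.5 in mesothelial cells, against 3.7 in liver cells, within the bacterial controls on both arrays, so it gives no fold, and the result for Fdps rests on 1 probe set.

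Fdft1 encodes squalene synthase, which joins 2 molecules of farnesyl diphosphate in the first step given over to sterols. Its 2 probe sets above the floor read 1547.1 and 996.9 in mesothelial cells, against 665.3 and 471.4 in liver cells, 2.33-fold and 2.11-fold higher in mesothelial cells, and the SD between them was 0.10 on the log2 scale. The brighter is of the kind that can match other transcripts, and the other gave nearly the same value. Of the remaining 2, one read 18.3 in mesothelial cells, against 19.1 in liver cells, and the other 18.3 in mesothelial cells, against 9.1 in liver cells. The last is within the controls in liver cells, which allows only at least 1.74-fold, and both lay below the floor.

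Sqle, squalene epoxidase, which is a slow and regulated step of the pathway, had 1 probe set. It read 827.2 in mesothelial cells, against 322.3 in liver cells, 2.57-fold higher in mesothelial cells, a difference of 1.36, the largest of the 8 genes by their brightest probe sets, and 68.3% of genes above the floor had a lower one.

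Lss encodes lanosterol synthase, which closes the ring system, and its 3 probe sets were all above the floor and all brighter by 2-fold or more in mesothelial cells. They read 741.8, 651.2 and 396.7 in mesothelial cells, against 292.7, 231.3 and 91.0 in liver cells. The folds were 2.53, 2.82 and 4.36, with an SD of 0.41 on the log2 scale, and the middle one is of a kind (_s_at) whose probes match several transcripts. The dimmest probe set, at 2.12 on the log2 scale, was the 1 of the 16 that stayed past 2-fold under each of the 5 scalings, and 87.9% of probe sets above the floor had a lower difference. The difference of Lss by its brightest probe set was 1.34 as deposited and 0.70 after median centring.

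Of the 2 regulators, Insig1 read close to the typical gene and Srebf2 read below it. Srebf2 had 2 probe sets, which read 918.1 and 211.1 in mesothelial cells, against 710.4 and 234.1 in liver cells. They pointed to opposite sides, 1.29-fold higher in mesothelial cells for the first and 1.11-fold higher in liver cells for the second, with an SD of 0.37 on the log2 scale. Of genes above the floor, 27.2% had a lower difference than the 0.37 of its brighter probe set, which turned to -0.27 after median centring, -0.46 after quantile normalization and -0.56 after centring on reference genes. Insig1, which encodes one of the proteins that retain SREBP and is itself a target of it, had 1 probe set at 4004.2 in mesothelial cells, against 2146.9 in liver cells, 1.87-fold higher in mesothelial cells. Its difference of 0.90 lay at the middle of all genes, with 49.7% of genes above the floor below it, and read -0.027 after centring on reference genes.

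**Figure D2:**
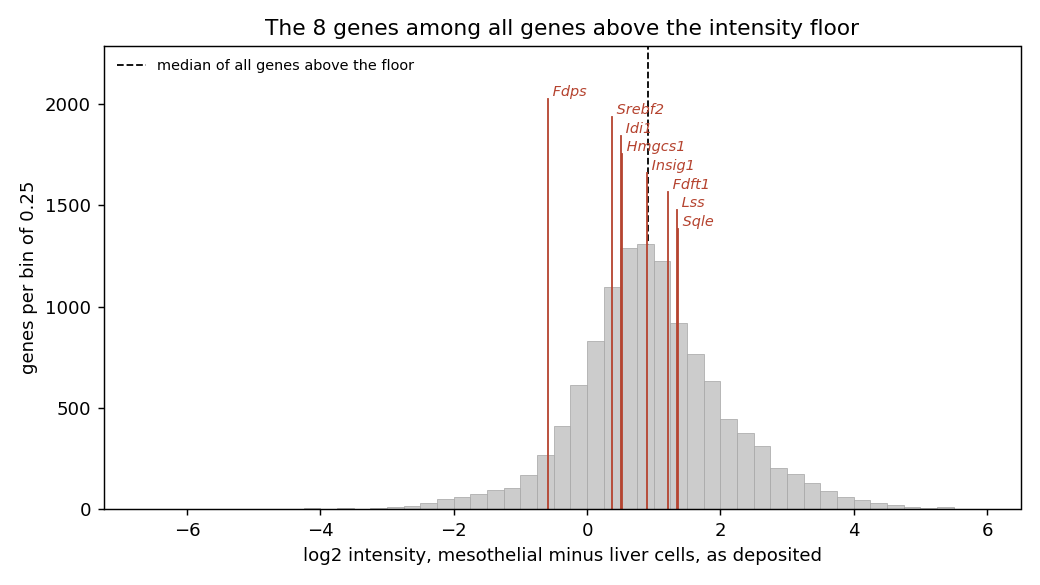
Histogram of the log2 difference, mesothelial minus liver cells as deposited, of the 11905 genes above the intensity floor, in bins of 0.25, with vertical lines for the 8 genes by their brightest probe set. The dashed line is the median of all genes above the floor, 0.91. Sqle, Lss and Fdft1 lie to its right, Insig1 on it, and Hmgcs1, Idi1, Srebf2 and Fdps to its left.

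The order of the 8 genes depends less on the scaling than their signs do, since a factor between arrays moves all by the same amount. Sqle differed by 1.95 more than Fdps on the log2 scale, Lss by 1.93 more and Fdft1 by 1.81 more, and by 1.92, 1.90 and 1.79 more after quantile normalization. These gaps are larger than the pooled SD of 0.70 between probe sets of the same gene, but that comparison decides nothing. The genes were picked as the highest and the lowest after ranking these same values, so large gaps follow from the choice. That SD is also not the spread of a gap between genes, and the Fdps value rests on a single probe set. Sqle differed by 0.83 more than Hmgcs1, but by 0.30 more after quantile normalization, and by 0.84 more than Idi1, or 0.77 after it. Fdft1, Sqle and Lss differed from each other by 0.14 at most. By single probe sets the 2 ends of the route overlapped, since the dimmer Idi1 probe set, at 1.18, lay above the dimmer of the Fdft1 probe sets above the floor, at 1.08.

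**Figure D3:**
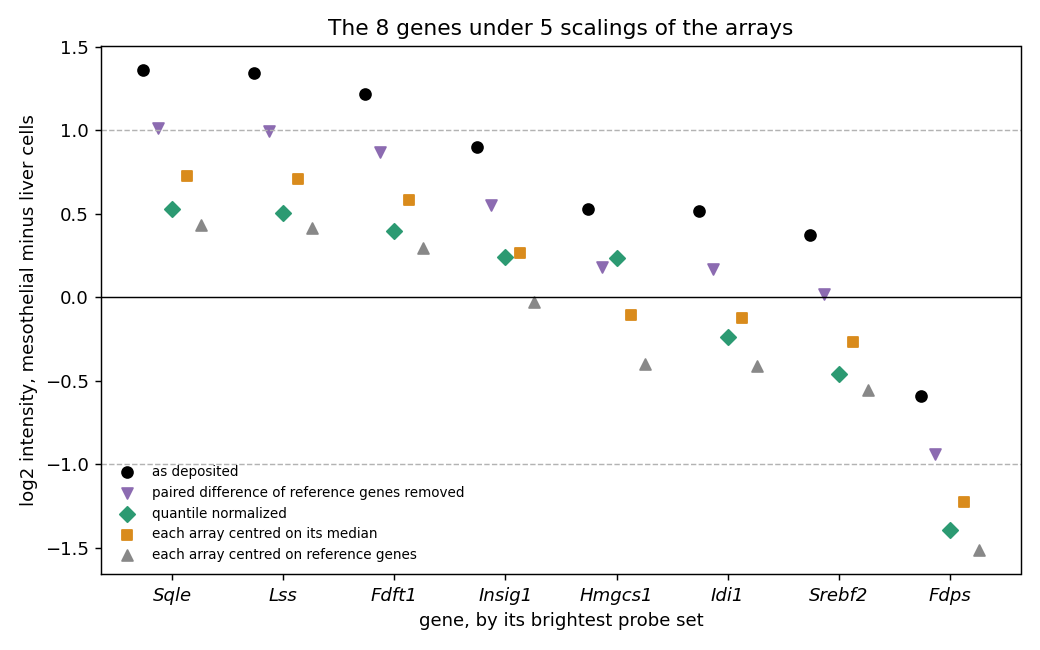
Log2 difference, mesothelial minus liver cells, of each of the 8 genes by its brightest probe set under 5 scalings, with 1 marker a scaling. The solid line is 0 and the dashed lines mark 2-fold. Sqle, Lss and Fdft1 stay above 0 and Fdps below it in all 5, while Hmgcs1, Idi1, Srebf2 and Insig1 cross 0 in at least 1.

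The other enzymes of the pathway did not continue the split seen within the 8 genes. Lists of them were drawn up by name, and where a gene had several probe sets the brightest stands for it. Of the 4 other genes measured for the steps up to the isoprenoid diphosphates, 2 were brighter by 2-fold or more in mesothelial cells and none in liver cells, with a median difference of 0.96. These 2 were Mvd, the decarboxylase that makes isopentenyl diphosphate, at 393.3 in mesothelial cells, against 180.8 in liver cells, and Pmvk, phosphomevalonate kinase, at 972.7 and 458.6. The Mvd value came from an _s_at probe set, and the other Mvd probe set differed by 0.38. Without probe sets open to cross-hybridisation 1 of the 4 was past 2-fold. Mevalonate kinase (Mvk) differed by 0.83, and Ggps1, which makes geranylgeranyl diphosphate from farnesyl diphosphate, by 0.66. Of the 9 other genes measured from squalene to cholesterol, 4 were brighter by 2-fold or more in mesothelial cells and none in liver cells, with a median of 0.57 that turned to -0.071 after median centring. The sterol dehydrogenase gene Nsdhl read 893.5 in mesothelial cells, against 304.6 in liver cells, a difference of 1.55. Dhcr7, which makes cholesterol in its last step, differed by 1.16 and the ketosteroid reductase gene Hsd17b7 by 1.14, and the 4 probe sets of Hsd17b7 had an SD of 0.66. The 1.14 came from an _x_at probe set. The other Hsd17b7 probe set above the floor pointed the other way, at 151.7 in mesothelial cells, against 192.7 in liver cells. Without probe sets open to cross-hybridisation 3 of the 9 were past 2-fold. At the other end Ebp, a sterol isomerase, read 680.9 in mesothelial cells, against 676.7 in liver cells, and Lbr, which is both a lamin receptor and a sterol reductase, differed by 0.23, and both turned below 0 after median centring, to -0.63 and -0.41. Over all 19 measured enzymes, the 6 above included, 9 were brighter by 2-fold or more in mesothelial cells, none in liver cells, beside 45.8% and 3.86% of all genes, and the median of 0.83 compares with 0.91 over all genes above the floor. After median centring the counts were 0 and 1, beside 24.1% and 9.34% of all genes. The median of the 19 was then 0.20, and -0.093 after centring on reference genes.

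The genes that sense sterols beside Srebf2 and Insig1 mostly read higher in mesothelial cells. Of 8 measured, 6 were brighter by 2-fold or more in mesothelial cells, none in liver cells, beside 45.8% and 3.86% of all genes above the floor. After median centring 4 were still past that fold in mesothelial cells, beside 24.1% of all genes. After quantile normalization or centring on reference genes 1 was, beside 2496 and 2093 of all 11905 genes above the floor. The median difference was 1.63, or 1.04 with 4 past 2-fold where the median over the probe sets stands for a gene. Mbtps2, the protease that makes the second cut in SREBP, read 356.6 in mesothelial cells, against 85.3 in liver cells, a difference of 2.06. Srebf1, the sister gene of Srebf2 that serves mainly fatty acid synthesis, read 1066.6 in mesothelial cells, against 329.4 in liver cells, 3.24-fold higher in mesothelial cells, whereas Srebf2 was 1.29-fold higher. Erlin1, of a membrane complex that binds cholesterol, differed by 1.79. Its 2 probe sets had an SD of 1.74, but the dimmer one lay below the floor. Insig2, the partner of Insig1, differed by -0.02 by its brightest probe set and by a median of 1.52 over its 3, with an SD of 1.01. Rnf139, a ubiquitin ligase with a sterol-sensing domain, read 2015.2 in mesothelial cells, against 2044.0 in liver cells.

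Sterol uptake and transport genes read higher in mesothelial cells for 7 of the 9 measured and lower for 2. As deposited, 4 of the 9 were brighter by 2-fold or more in mesothelial cells and none in liver cells, near the 45.8% and 3.86% of all genes above the floor. After median centring the counts were 1 and 2, where 24.1% and 9.34% of all genes were past that fold, with a median of 0.91 as deposited that turned to -0.020 after centring on reference genes. Lrp1, a large endocytic receptor of the lipoprotein receptor family, read 1800.2 in mesothelial cells, against 142.4 in liver cells, 12.6-fold higher in mesothelial cells, and its 2 probe sets had an SD of 0.75. Npc1 and Stard3, which handle cholesterol at late endosomes, differed by 1.31 and 1.25. Scarb1, a receptor for high density lipoprotein, differed by 0.43. Vldlr, a lipoprotein receptor, and Mylip, a ubiquitin ligase that brings about the loss of such receptors, read 1.29-fold and 1.48-fold higher in liver cells, differences of -0.37 and -0.56. The 6 probe sets of Vldlr had an SD of 0.87. The one furthest to the mesothelial side read 60.5 in mesothelial cells, against 18.5 in liver cells, and lay below the floor.

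**Figure D4:**
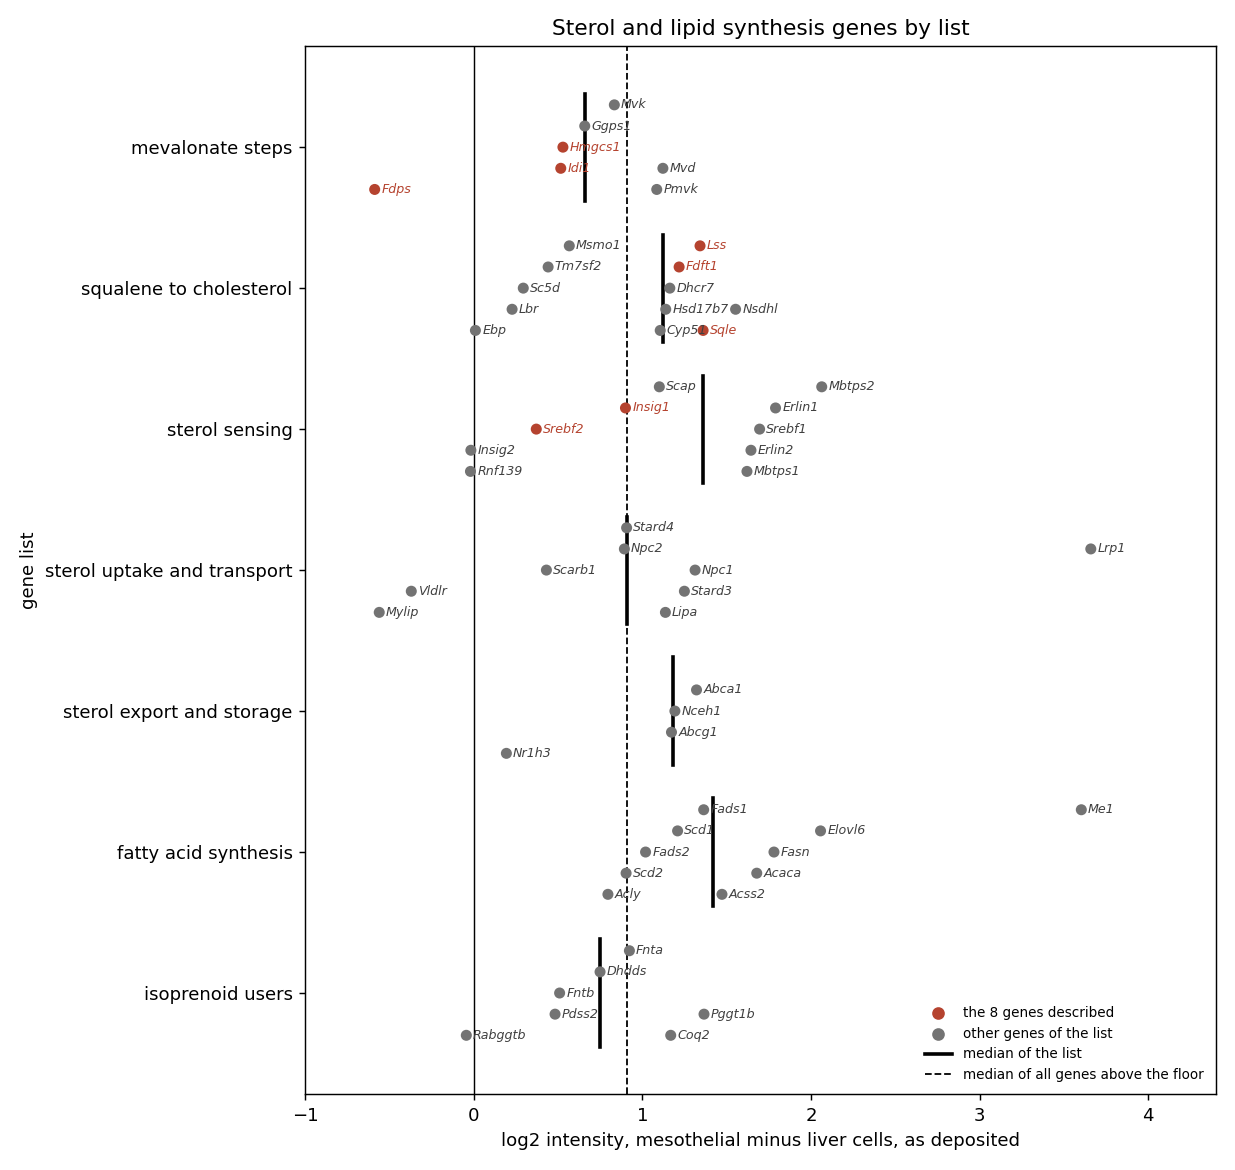
Log2 difference, mesothelial minus liver cells as deposited, of each measured gene of 7 lists, 1 point a gene by its brightest probe set, with the 8 genes in red. Thick bars are list medians, the solid line is 0 and the dashed line is the median of all genes above the floor, 0.91. Fdps lies furthest to the left and Lrp1 and Me1 furthest to the right.

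Markers of other cell types were measured on both arrays. Of all genes above the floor, 45.8% were brighter by 2-fold or more in mesothelial cells and 3.86% in liver cells. Of 6 hepatocyte markers, 1 was brighter by 2-fold or more in mesothelial cells, with a summed intensity of 73121 in mesothelial cells, against 51718 in liver cells, and beside albumin, alpha-fetoprotein (Afp) read 13191 in mesothelial cells, against 10376 in liver cells. Of 9 erythroid markers, 7 were brighter by 2-fold or more in liver cells, with sums of 14264 in mesothelial cells, against 40724 in liver cells. Alas2, the erythroid enzyme of haem synthesis, read 549.9 against 4892.2 and the red cell membrane gene Epb42 62.7 against 1145.9. All 5 megakaryocyte markers and 4 of 5 macrophage markers were brighter by 2-fold or more in mesothelial cells, with sums of 15881 against 4402 and 4089 against 1071. Of 7 proliferation markers, 1 was, with sums of 28860 in mesothelial cells, against 28606 in liver cells. After median centring, 3 of 5 megakaryocyte and 2 of 5 macrophage markers were past that fold in mesothelial cells, beside 24.1% of all genes. None of the hepatocyte or proliferation markers then was. In liver cells 8 of 9 erythroid and 1 of 7 proliferation markers were past it after centring, beside 9.34% of all genes. Of 5 genes of steroid-making cells 1, Hsd3b1, was above the floor, and it was not past 2-fold, while Nr5a1 in mesothelial cells and Cyp17a1 in liver cells were within the controls. As for the mesothelial list, Msln in liver cells was within the controls, and no marker of the other lists was. The part of these cells in the differences of the 8 genes was not tested.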

How the data were processed

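RNA was measured on GeneChip Mouse Genome arrays, 1 for each group of the labels. Per the labels, 20 ng of total RNA was amplified and labelled with biotin. The range of the deposited values marks them as linear intensities, 1 a probe set. RMA and Partek stand in the submitters' processing notes, with neither version nor order. The quantiles of the arrays differ, and no source used here tells of another scaling, so the factor between arrays is unknown. The number of arrays limits the precision.

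Names came from the platform annotation, in which 34945 probe sets had 1 symbol, 932 several and 9160 other than 64 controls none. Those with several were left out, and none of them names one of the 8 genes. The log2 of each value was taken, with the floor at the 50th percentile of each array, in Python 3.11.15 with pandas 2.3.3 and numpy 2.4.6, and the computation was tested on simulated arrays with known changes. Folds against a value within the bacterial controls were taken against the highest control and written as at least N-fold. The genes and lists were chosen with earlier results of these data known. Of 62 listed genes other than the 8, 51 had a probe set naming them alone, and the rest were not analysed here. In each list the genes with the 3 largest and 2 smallest absolute differences were named, and any exception counted. The alternatives tried are given with their effect at the end, and that of removing the paired difference of reference genes was added after the data were seen.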

Additional observations from a re-analysis of the deposited data

How the results depend on the processing

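The differences of the 8 genes and the list medians kept their sign when low values were set to the control level, without a floor, under a 75th percentile floor, by the median over probe sets and without probe sets open to cross-hybridisation. By the median over probe sets Fdps read -0.0084, but that value takes in its probe set within the controls on both arrays. Among the other pathway genes Insig2 turned to 1.52 and Acaca to -0.065 by that median. The other genes past 2-fold then became 1 of 4 up to the isoprenoid diphosphates, 2 of 9 from squalene on and 4 of 10 of fatty acid synthesis. Of the 16 probe sets, 8 were brighter by 2-fold or more in mesothelial cells and 0 in liver cells as deposited. These counts were 1 and 1 after median centring, 1 and 2 after centring on reference genes, 1 and 1 after quantile normalization and 3 and 0 after removing the median paired difference of reference genes, an alternative chosen after seeing the data. Of all 20658 probe sets above the floor, 8644 and 839 were past that fold as deposited. In the same order of scalings these were then 4397 and 2311, 3173 and 3629, 3858 and 2774, and 6028 and 1440. Without cross-hybridising probe sets 5 of 13 were higher in mesothelial cells, and 1 of 16 at 4-fold. The median of the 16 was 0.035 after centring on reference genes and 0.24 after quantile normalization. By gene, 3 and 0 of 8 became 0 and 1 under median centring, reference gene centring and quantile normalization, 1 and 0 with the paired difference removed and 0 at 4-fold, and the median of 0.71 became -0.21 after centring on reference genes. Of 51 other genes, 29 and 0 became 9 and 2, 4 and 2, and 4 and 2 under these 3 scalings, 14 with the paired difference removed, 4 at 4-fold and 19 by the median over probe sets. Their median of 1.11 became 0.18 after centring on reference genes and 0.29 after quantile normalization. Of all 11905 genes above the floor, 5457 and 460 were past 2-fold as deposited. Under the same 3 scalings these were 2867 and 1112, 2093 and 1710, and 2496 and 1329. With the paired difference removed they were 3829 and 723. Shares of all genes at 4-fold and by the median over probe sets are not given here. Signs that turned after median centring were those of Hmgcs1 (-0.11), Idi1 (-0.12), Srebf2 (-0.27) and the other squalene genes (-0.071). After centring on reference genes they were Hmgcs1 (-0.40), Idi1 (-0.41), Srebf2 (-0.56), Insig1 (-0.027), the other squalene genes (-0.36), uptake (-0.020), isoprenoid users (-0.18) and the 19 cholesterol enzymes (-0.093). After quantile normalization they were Idi1 (-0.24), Srebf2 (-0.46), the other squalene genes (-0.27) and isoprenoid users (-0.084). The shifts removed were 0.64, 0.93 and 0.35 for the median, the reference genes and their paired difference, and by construction these move every difference alike. The motif shares changed little when 1 start a gene was used, for example from 37.4% to 37.9% for CCAAT.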

Other observations

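Fatty acid synthesis genes, which SREBP-1 serves in the main, read higher in mesothelial cells by the brightest probe set of each of the 10 measured. As deposited 8 were brighter by 2-fold or more in mesothelial cells, beside 45.8% of all genes above the floor, and 4 were after median centring, beside 24.1%. With the median over the probe sets of a gene 4 were past 2-fold as deposited. After quantile normalization or centring on reference genes 2 were, beside 2496 and 2093 of all 11905 genes above the floor. The acetyl-CoA carboxylase gene Acaca, named here after its values were seen, differed by 1.68 by its brightest probe set and by -0.065 by the median of its 2, which had an SD of 2.46. The median of the list was 1.42, beside 0.83 for the 19 cholesterol enzymes and 0.91 for all genes above the floor, but 0.88 beside 0.74 with the median over probe sets. Whether the 2 lists differ was not tested. Malic enzyme (Me1), which supplies NADPH, read 192.1 in mesothelial cells, against 15.8 in liver cells, a difference of 3.60, and its 2 probe sets had an SD of 1.69. The liver value lay below the liver array median of 42.3, not far above its highest bacterial control of 10.5. The other Me1 probe set differed by 1.22. The elongase gene Elovl6 read 1677.8 against 403.3 and fatty acid synthase (Fasn) 1063.8 against 309.7. The smallest differences were those of Acly, which makes cytosolic acetyl-CoA, at 0.80, and the desaturase gene Scd2, at 0.90, and Acly turned to -0.13 and Scd2 to -0.023 after centring on reference genes.

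Of 4 sterol export and storage genes measured, 3 were brighter by 2-fold or more in mesothelial cells, beside 45.8% of all genes above the floor, but none once the arrays were centred on their medians, beside 24.1%. The exporter genes Abca1 and Abcg1 differed by 1.32 and 1.17, and the ester hydrolase gene Nceh1 by 1.19. The 3 probe sets of Abca1 had an SD of 1.03, but all except the brightest lay below the floor. Nr1h3, which encodes the oxysterol receptor LXR alpha, read 69.6 in mesothelial cells, against 60.9 in liver cells. Of 7 genes that use isoprenoids, 2 were brighter by 2-fold or more in mesothelial cells, beside the 45.8% of all genes, with a median of 0.75 that turned to -0.18 after centring on reference genes. They were Pggt1b, a subunit of a protein prenyltransferase, at 1.37, and Coq2, of ubiquinone synthesis, at 1.17. Fnta, a subunit shared by prenyltransferases, differed by 0.92, Pdss2, which builds the side chain of ubiquinone, by 0.48, and Rabggtb, which prenylates Rab proteins, by -0.05.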
